A study of Homo sapiens with 4 samples.

Results

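Receptor tyrosine kinases are single-pass membrane proteins that bind a growth factor, an ephrin, a matrix protein or another ligand outside the cell and carry a tyrosine kinase domain inside it. The 47 receptors described here were listed by name, over the ERBB, PDGF receptor, VEGF receptor, FGF receptor, neurotrophin receptor, ROR and MuSK, MET, TAM, TIE, ephrin receptor, RET, RYK, PTK7, discoidin domain, and ROS, LTK and ALK families. A probe set annotated with exactly 1 gene symbol was found for 43 of them, among 18417 genes in all. The other 4 were EPHB2, RET, ROS1 and ALK. RET, ROS1 and ALK occurred in the annotation used only on probe sets that carried several symbols, so they were given no value, and EPHB2 was not listed with a probe set there.

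The cells were DAOY, an established human medulloblastoma line, on 4 whole-transcript arrays. In 3 cultures ZFX, a zinc finger transcription factor, was lowered with an shRNA delivered by lentivirus, and each culture received a different hairpin, H2, H3 or H4. The control was 1 culture given a scrambled hairpin (SCR) without a target. All 4 cultures therefore carried a lentiviral hairpin and all were kept in puromycin at 2 ug/mL, which kills cells without the vector. Transduction lasted 16 to 24 hours, recovery 48 hours and selection about 48 hours before RNA was taken. The labels do not say whether a transduction was repeated, so p-values measure only the spread between these arrays, and the question asked was which receptors read differently when ZFX was lowered.

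When a ligand brings receptor chains together, the kinase domains phosphorylate each other, and adaptor proteins dock on the phosphorylated tyrosines. From there the signal runs through RAS and ERK and through phosphoinositide 3-kinase to genes of growth, survival and movement. Negative regulators such as the SPRY and DUSP proteins and LRIG1 restrain the signal. In the developing cerebellum these receptors take part in progenitor growth, migration and axon guidance.

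ZFX itself read 745 under H2, 749.6 under H3 and 996 under H4, beside a control value of 1429.6, or 52.1%, 52.4% and 69.6% of the scrambled intensity. The log2 intensities of any pair of arrays correlated at 0.992 to 0.996 across probe sets. Of 13813 genes, 0 (0%) had a limma p under 0.05 after adjustment, and 446 genes (3.23%) had an unadjusted p under 0.05. The adjusted p in limma was 0.9998 for each of the 29 receptors tested, so no receptor is said to have changed, and the values below describe these 4 arrays. A single value compared over 3 arrays against 1 cannot give an exact permutation p below 0.25 (two-sided).

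A receptor entered the comparison when its mean log2 intensity over the 4 arrays reached the 25th percentile of all gene means, 6.78, an intensity of 110.2. This held for 29 of the 43 receptors. They were EGFR, which binds epidermal growth factor, and its dimer partner ERBB2; PDGFRA and PDGFRB, which bind platelet-derived growth factors, and CSF1R, the receptor of colony-stimulating factor; FLT4, which binds VEGFC; FGFR1, FGFR2, FGFR3 and FGFR4; the WNT5A-binding receptors ROR1 and ROR2; MET, the receptor of hepatocyte growth factor; AXL, TYRO3 and MERTK of the TAM family; TIE1 and TEK; EPHA2, EPHA4, EPHA5, EPHB1, EPHB3, EPHB4 and EPHB6; RYK and PTK7; and the collagen receptors DDR1 and DDR2. Just inside the threshold lay FGFR4 at 6.80 and FGFR2 at 6.89, and just outside it LTK at 6.59, NTRK3 and MST1R both at 6.50 and FLT1 at 6.45.

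The 14 receptors under the threshold were ERBB3, ERBB4, KIT, FLT3, FLT1, KDR, NTRK2, NTRK3, MUSK, MST1R, EPHA1, EPHA3, EPHA7 and LTK, with mean log2 intensities from 5.74 to 6.59. No detection call was used here, so a receptor under this level is called dim and not absent. Of these 14, 3 read below the scrambled array with all 3 hairpins and 1 above it with all 3. Over all 18417 genes, dim ones included, 31.3% were below with all 3 hairpins and 17.0% above. FLT1, a VEGF receptor, read 107.9 on the scrambled array, just under the threshold, and 72.2, 87.8 and 86.0 with H2, H3 and H4. The mean differences of the other dim receptors lay between -0.11, that of KDR, and 0.074, that of EPHA7, on the log2 scale. Both measured neurotrophin receptors, NTRK2 and NTRK3, lay under the threshold, whereas all 4 FGF receptors and all 3 TAM receptors lay above it. Intensities of different probe sets are not on 1 scale, so they order no receptor above another.

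**Figure D1:**
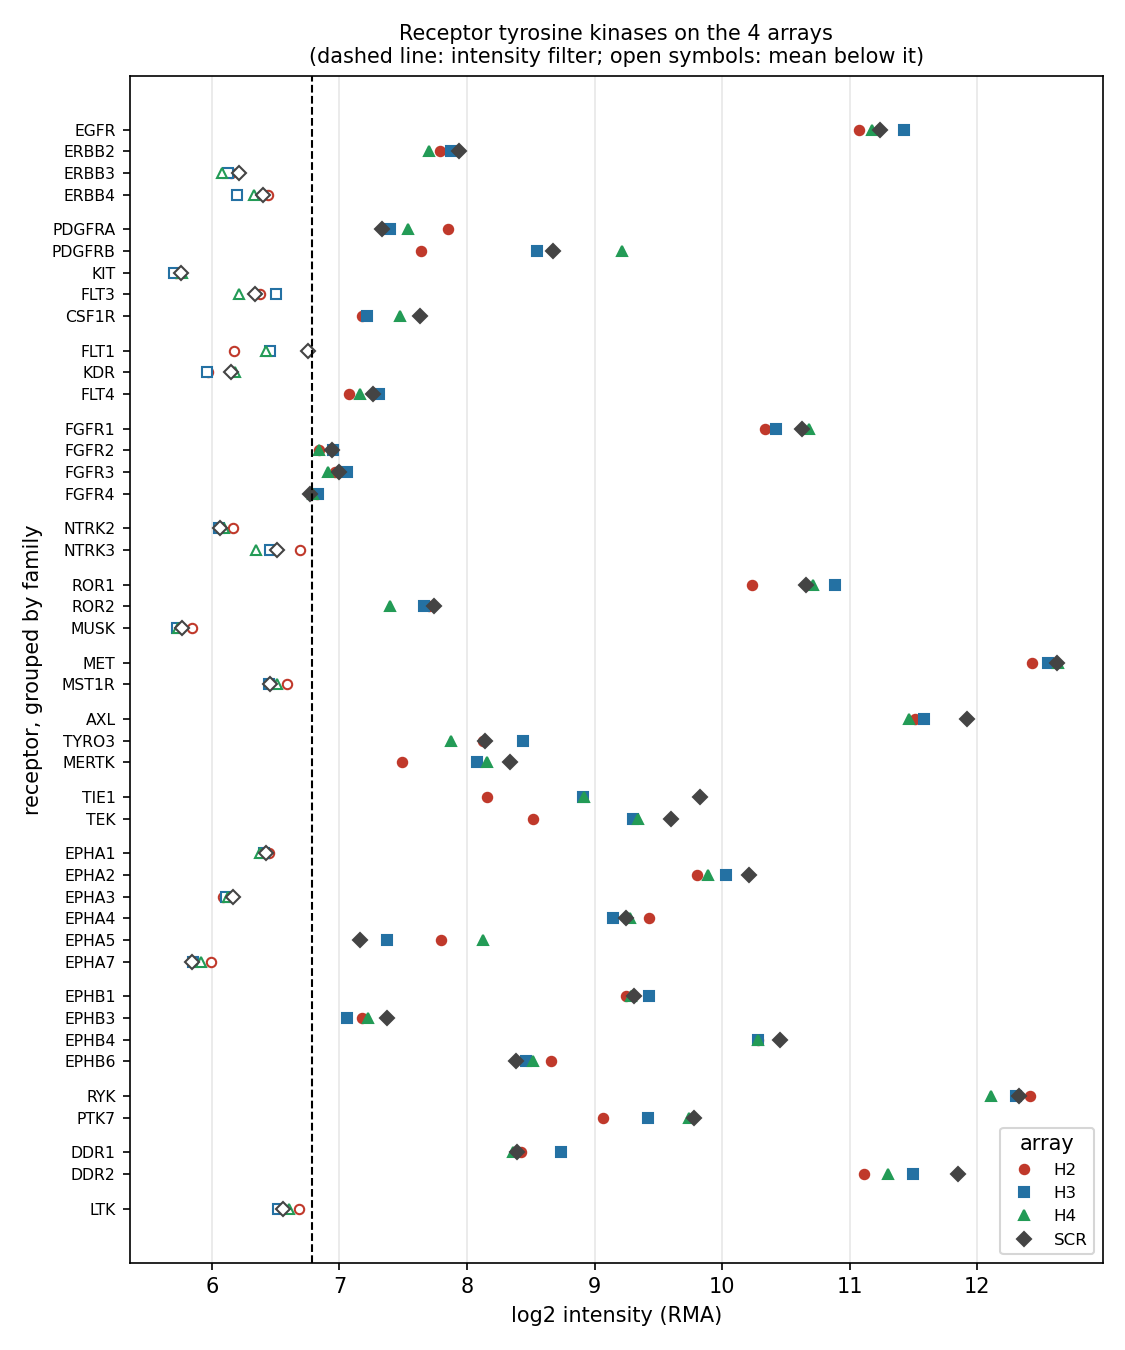
Log2 RMA intensity (horizontal axis) of the 43 measured receptors, grouped by family, on the H2, H3, H4 and scrambled (SCR) arrays, 1 symbol an array. The dashed line is the intensity threshold at 6.78, and open symbols mark the 14 receptors whose mean lies under it. The scrambled array sits furthest right for TIE1, TEK, DDR2 and AXL and furthest left for EPHA5.

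Of the 29 receptors above the threshold, 12 read below the scrambled array with all 3 hairpins and 4 above it with all 3, and 13 lay on both sides. Over all genes kept, 30.6% were below with all 3 hairpins and 16.9% above. The median of the receptors' mean log2 differences was -0.087, and that of all genes kept was -0.035. With H2, H3 and H4 the receptor medians were -0.17, -0.074 and -0.10, where those of all genes were -0.030, -0.021 and -0.046. Without H2, 13 of the 29 receptors were below with both other hairpins, where 40.1% of genes were, and the receptor median was -0.049. Without H3, 18 were below (40.6% of genes) and the median was -0.14, and without H4, 15 were below (39.4% of genes) and it was -0.10. Centring each array on its median turned the background to 23.3% below and 23.6% above and left 12 receptors below and 5 above. In bulk RNA, fewer cells that carry a receptor and less of its RNA per cell cannot be told apart.

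By size, 3 receptors, TIE1, DDR2 and AXL, read lower than the control by 1.2-fold or more with each hairpin, against 2.94% of all genes, and 0 were at least 1.2-fold above with every hairpin, against 0.709%. The same 3 were the receptors with an unadjusted p under 0.05 in limma, 0.0166 for TIE1, 0.0166 for AXL and 0.0252 for DDR2, where 3.23% of genes had one. TIE1 was the 1 receptor lower by 1.5-fold or more with each hairpin (background 0.311%), and 0 were 1.5-fold above with every hairpin (background 0.0507%). With at least 1 hairpin 7 receptors were 1.5-fold away in either direction, namely TIE1, TEK, DDR2, MERTK, PTK7, PDGFRB and EPHA5, where 8.81% of genes were. With H2 alone 6 receptors were 1.5-fold below (background 5.61%) and 1 above (0.992%). With H3, 1 was below (1.14%) and 0 above (0.528%), and with H4, 1 was below (2.17%) and 1 above (0.608%). The spread between hairpins was wider for the receptors, with a median SD of 0.165 on the log2 scale, than for all genes kept, with 0.115, and this difference was not tested. H2 lay furthest from the control for 15 of the 29 receptors and for 46.6% of all genes kept.

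**Figure D2:**
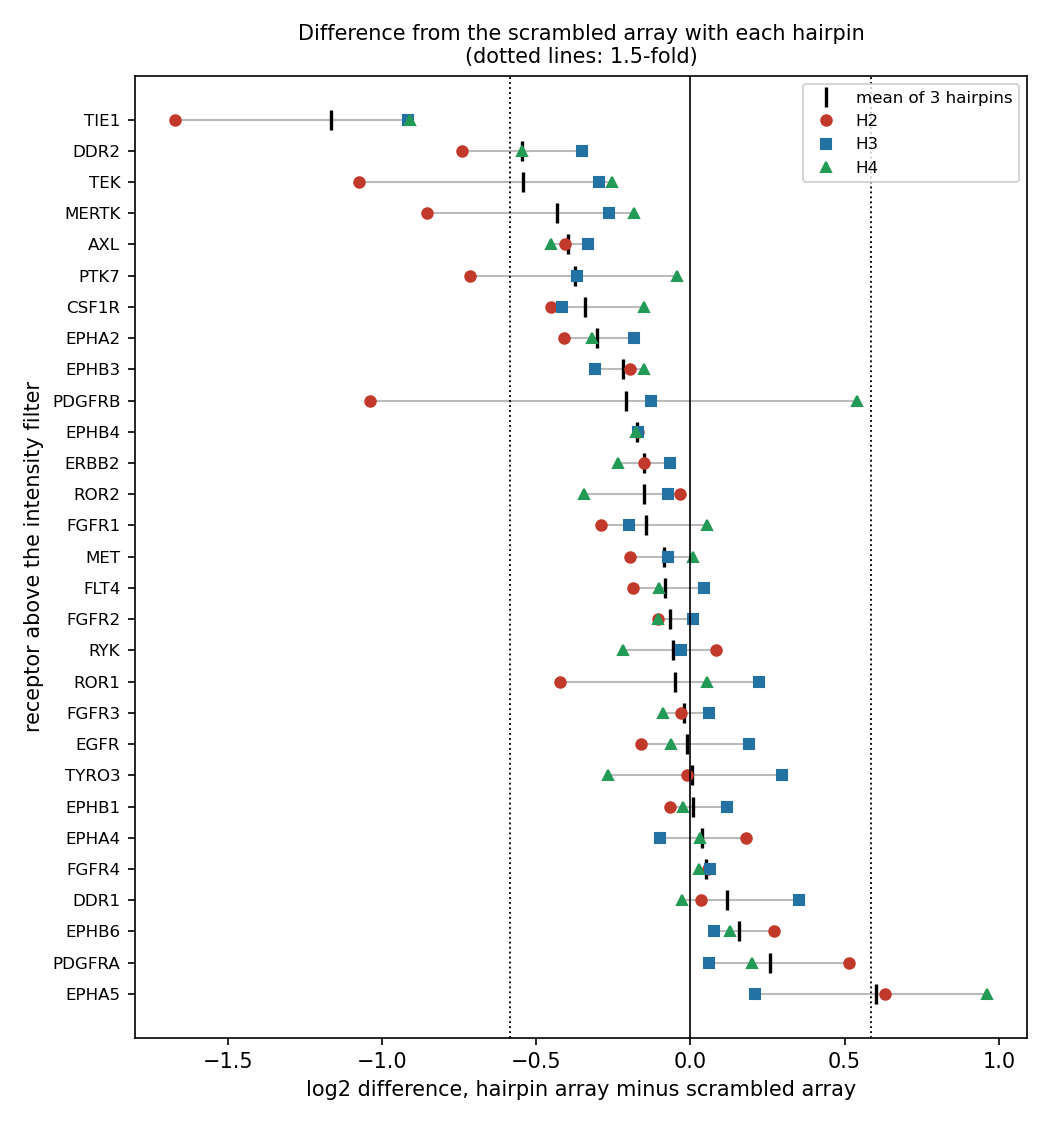
Log2 difference from the scrambled array (horizontal axis) of each of the 29 receptors above the threshold with H2, H3 and H4, 1 symbol a hairpin, and their mean as a bar, ordered by that mean. Dotted lines stand at 1.5-fold. TIE1 lies beyond the lower line with every hairpin, and the H2 symbol lies furthest left for TIE1, DDR2, TEK, MERTK, PTK7 and PDGFRB.

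TIE1 and TEK form the TIE family, known from blood vessels, where TEK (also called TIE2) binds angiopoietins and TIE1 is its partner without a well-defined ligand of its own. TIE1 read 286 under H2, 482 under H3 and 484 under H4, beside a control value of 909. All 3 knockdown arrays were thus well under the scrambled one, at 31.4%, 53.0% and 53.2% of it. On the log2 scale the mean difference was -1.17 ± 0.44 (SD over n = 3 hairpins), and the 95% interval in limma ran from -2.02 to -0.31 (unadjusted, adjusted p = 0.9998). TEK read 367 under H2, 631 under H3 and 649 under H4, beside a control value of 774. It was below the scrambled array with every hairpin, by far the most with H2, and its mean log2 difference of -0.54 ± 0.46 (SD, n = 3) was -0.27 without H2. Both receptors share an order of the hairpins, with H2 lowest and H3 and H4 close together. This order is not particular to them, since MERTK had it too. H2 lay furthest from the scrambled array for 46.6% of all genes kept.

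Other endothelial genes were read beside these receptors, since both are known as vascular. Of 15 markers listed, 14 were measured and 8 lay above the threshold, 3 of them below the scrambled array with all 3 hairpins, near the 30.6% of all genes kept, and 0 above (16.9% of genes). Their median difference was -0.085. The defining genes CDH5 and VWF were dim, at 92.7 and 83.5 on the scrambled array and 84.0 to 91.2 and 76.2 to 79.1 with the hairpins. PECAM1 was dim by its mean, and it read 83.4 under H2, 85.6 under H3 and 92.2 under H4, beside a control value of 125.9. Summed over the 14 measured markers the intensity was 2433 on the scrambled array and 2256 to 2329 with the hairpins. The part of the marker list in the TIE1 and TEK values was not tested.

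The annotated promoters of TIE1, DDR2 and AXL are shown because these 3 receptors read at least 1.2-fold lower with each hairpin, and that of TEK as the family partner of TIE1. Each window runs from 250 bases before to 50 after the RefSeq start, on the plus strand of GRCh38.p14: chr1:43300732-43301031 for TIE1, chr9:27108975-27109274 for TEK, chr1:162630613-162630912 for DDR2 and chr19:41218973-41219272 for AXL. Capitals mark AGGCCT, the core of the sequence ZFX is known to bind and its own reverse complement, GGGCGG or CCGCCC, the GC box, and AGGAAG or CTTCCT, a core that ETS factors recognise.
TIE1: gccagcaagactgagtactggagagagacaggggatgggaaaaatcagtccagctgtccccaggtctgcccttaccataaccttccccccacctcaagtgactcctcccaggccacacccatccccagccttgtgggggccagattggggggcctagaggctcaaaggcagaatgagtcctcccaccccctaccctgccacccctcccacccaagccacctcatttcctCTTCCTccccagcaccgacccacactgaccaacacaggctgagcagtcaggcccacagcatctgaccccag
TEK: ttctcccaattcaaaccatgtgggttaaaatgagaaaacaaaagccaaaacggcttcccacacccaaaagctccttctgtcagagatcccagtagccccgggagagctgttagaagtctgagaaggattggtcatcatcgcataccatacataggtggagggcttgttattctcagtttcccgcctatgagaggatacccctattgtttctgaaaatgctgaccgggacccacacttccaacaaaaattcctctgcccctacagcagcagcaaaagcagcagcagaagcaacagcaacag
DDR2: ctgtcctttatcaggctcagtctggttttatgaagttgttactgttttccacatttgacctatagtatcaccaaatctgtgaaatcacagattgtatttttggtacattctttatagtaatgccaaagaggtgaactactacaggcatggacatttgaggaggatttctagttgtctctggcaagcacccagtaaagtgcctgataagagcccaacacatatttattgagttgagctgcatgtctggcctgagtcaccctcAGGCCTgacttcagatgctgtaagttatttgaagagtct
AXL: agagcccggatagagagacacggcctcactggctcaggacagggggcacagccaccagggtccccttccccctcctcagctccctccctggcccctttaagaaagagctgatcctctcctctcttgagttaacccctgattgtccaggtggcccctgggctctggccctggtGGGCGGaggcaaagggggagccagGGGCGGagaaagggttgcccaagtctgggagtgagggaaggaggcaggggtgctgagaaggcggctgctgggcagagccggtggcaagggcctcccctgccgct

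AGGCCT occurred in the DDR2 window and not in those of TIE1, TEK or AXL. Over the 44 of the 47 receptors with a window it occurred in 5, and over all 35116 windows in 10.9%. Of the 27 receptors above the threshold with a window, the 3 with AGGCCT were DDR2, EPHA2 and FGFR2, where 11.1% of the windows of all genes kept had it. The GC box was found in 20 of these 27 (68.8% of genes kept), including AXL with 2 copies, and the ETS core in 4 of 27 (32.7%), including TIE1. The searches covered both strands and no matches overlapped in the 4 windows shown. A match is a string of letters and not a site in use, and which start these cells use was not measured.

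DDR2 and DDR1 are discoidin domain receptors, which bind collagen and not a soluble growth factor. DDR2 read 2212 under H2, 2896 under H3 and 2528 under H4, beside a control value of 3696. The scrambled array was the highest and the hairpins reached 59.8%, 78.3% and 68.4% of it, a mean log2 difference of -0.55 ± 0.19 (SD, n = 3; 95% interval in limma -0.99 to -0.10, unadjusted). A further DDR2 probe set with a lower mean, not used in the fit, read 411 under H2, 619 under H3 and 563 under H4, beside a control value of 960.5. It had the same order of arrays and a larger mean difference of -0.88. DDR1 read 344, 428 and 329 with H2, H3 and H4 and 335 in the control, on both sides of it, with a mean difference of 0.12 ± 0.20. It turned to above with all 3 hairpins under centring, quantile normalization and cyclic loess.

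The TAM receptors AXL, TYRO3 and MERTK bind GAS6, and TYRO3 and MERTK also bind PROS1. Both ligands bridge their receptors to phosphatidylserine on dying cells. AXL read 2921 under H2, 3075 under H3 and 2828 under H4, beside a control value of 3868. The hairpins lay close together, at 75.5%, 79.5% and 73.1% of the scrambled intensity, and the mean log2 difference was -0.40 ± 0.061 (SD, n = 3; 95% interval in limma -0.69 to -0.11, unadjusted). AXL was the receptor whose difference was at least 1.2-fold with the smallest spread between hairpins. MERTK read 179 under H2, 269.8 under H3 and 285 under H4, beside a control value of 324. It was lowest with H2, and its mean difference of -0.43 ± 0.37 was -0.22 without H2. TYRO3 read 279.7, 346 and 235 with H2, H3 and H4 and 282 in the control, with a mean difference of 0.006 ± 0.28, so the 3 TAM receptors did not read alike. The ligand GAS6 read 267 under H2, 622 under H3 and 334 under H4, beside a control value of 499, again on both sides of it, and PROS1 read 634, 638 and 684 with H2, H3 and H4 and 702 in the control. PROS1 was below with every hairpin by little, a mean difference of -0.11 ± 0.061.

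**Figure D3:**
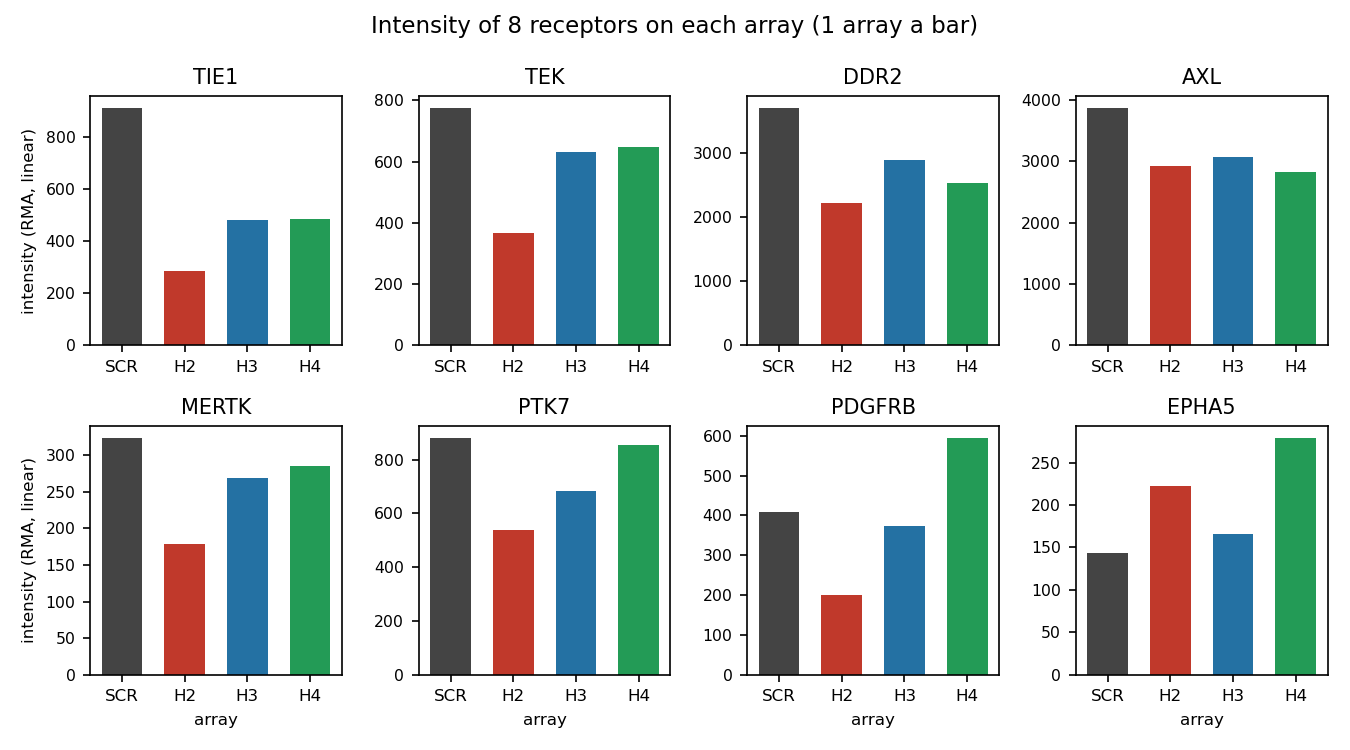
RMA intensity on a linear scale (vertical axis, from 0, a scale of its own for each receptor) of 8 receptors on the scrambled (SCR), H2, H3 and H4 arrays, 1 bar an array and no error bars, since each bar is 1 array. TIE1, TEK, DDR2, AXL, MERTK and PTK7 are highest on the scrambled array, EPHA5 is lowest there, and PDGFRB is lowest with H2 and highest with H4.

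Among the receptors of ephrins, which are membrane-bound ligands that steer cell contact and axon growth, EPHA5 was the member read higher by 1.5-fold on average. It read 222 under H2, 166 under H3 and 279 under H4, beside a control value of 143.4, or 1.55-, 1.16- and 1.95-fold the scrambled intensity. Every hairpin was above, with H3 nearest, and the mean log2 difference was 0.60 ± 0.38 (SD, n = 3; 95% interval in limma -0.13 to 1.33, unadjusted). EPHB6, an ephrin receptor known to lack kinase activity, was also above with every hairpin, at 404, 352 and 366 against 334.6, a mean difference of 0.16 ± 0.10. EPHA2 read 893 under H2, 1044 under H3 and 951 under H4, beside a control value of 1185, below with each, a mean difference of -0.30 ± 0.11. EPHB3 had 145, 134 and 149 against 165.7 (-0.22 ± 0.082). EPHB4, the receptor of EFNB2, read 1247 under H2, 1245 under H3 and 1242 under H4, beside a control value of 1402. The hairpins differed by an SD of only 0.003, which says nothing of the error of the lone scrambled array, and the mean difference was -0.17. EPHA4 and EPHB1 lay on both sides, with mean differences of 0.037 and 0.009, and under quantile normalization EPHB1 was above with every hairpin.

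Of the 8 ephrins, all above the threshold, 3 were below the scrambled array with all 3 hairpins, a share near the 30.6% of all genes kept, and 0 above, where 16.9% of genes were. EFNA1 read 419.7 under H2, 589.5 under H3 and 385 under H4, beside a control value of 811. The mean difference was -0.83 ± 0.32 (SD, n = 3), with an unadjusted p of 0.025 and an adjusted p of 0.9998 in limma. Its known partner EPHA2 was thus also lower on these arrays, by less. EFNB2, the partner of EPHB4, was above the scrambled array with H2 (758 against 602) and below it with H3 (404) and H4 (450.5).

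The platelet-derived growth factor receptors are known from mesenchymal cells and glial progenitors. Of the 29 receptors PDGFRB had the widest spread between hairpins, and it read 199 under H2, 374 under H3 and 595 under H4, beside a control value of 409. H2 was at 48.6% and H4 at 145.5% of the scrambled intensity, so the mean difference of -0.21 ± 0.79 (SD, n = 3) described no single hairpin, and without H2 it was 0.21. PDGFRA read 231, 168 and 186 with H2, H3 and H4 and 161.5 in the control, above with each hairpin, and most with H2, by 0.26 ± 0.23 on average. The 2 receptors thus went opposite ways with H2. Of the ligands, PDGFA read 461 under H2, 732 under H3 and 673 under H4, beside a control value of 894, below with each, a mean difference of -0.55 ± 0.36. CSF1R, known from macrophages, read 145, 148 and 178 with H2, H3 and H4 and 198 in the control, a mean difference of -0.34 ± 0.16. Its ligand CSF1, picked after its values were seen, read 507, 922 and 746 with H2, H3 and H4 and 1024 in the control (-0.54 ± 0.44).

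CSF1R was read beside blood cell markers. Of 12 listed, 11 were measured and 5 lay above the threshold, 2 of them below the scrambled array with all 3 hairpins and 0 above (30.6% and 16.9% of all genes kept), with a median of -0.11. LCP1, an actin-bundling protein of leukocytes, had the largest difference (-1.16 ± 0.49). The defining gene PTPRC was dim at 43.0 on the scrambled array and 41.9 to 42.4 with the hairpins. CD14 was just above the threshold, at 133.2 on the scrambled array and 130.6 to 136.2 with the hairpins. CD68 read 1853, 3253 and 2273 with H2, H3 and H4 and 2570 in the control, and LAPTM5 read 271, 633 and 861 against 820, both on both sides. Summed over the 11 measured genes the intensity was 3309 under H2, 5392 under H3 and 4325 under H4, beside a control value of 5304. CD68, LCP1 and LAPTM5 were the largest parts of this sum. Since probe sets are not on 1 scale, it measures no amount of blood cells. Their part in the CSF1R value was not tested.

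MET, EGFR and FGFR1, which signal to growth and movement in many tumours, stood closer to the scrambled array. MET, which drives cell scattering, read 5518 under H2, 6004 under H3 and 6363 under H4, beside a control value of 6319.6, a mean difference of -0.087 ± 0.10. EGFR read 2158, 2750.0 and 2308 with H2, H3 and H4 and 2409.9 in the control, a mean of -0.010 ± 0.18 that took the other sign under centring, quantile normalization and cyclic loess. FGFR1 read 1292, 1375 and 1638 with H2, H3 and H4 and 1578 in the control, a mean of -0.14 ± 0.18. For these 3 the hairpins lay on both sides, except that MET was below with every hairpin under quantile normalization, and the 95% intervals in limma were -0.37 to 0.20 for MET, -0.45 to 0.43 for EGFR and -0.60 to 0.31 for FGFR1. Differences within those intervals were not resolved with these arrays.

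ROR1, RYK and PTK7 belong to the receptors that take part in WNT signalling and have little or no kinase activity. ROR1 read 1207 under H2, 1889 under H3 and 1678 under H4, beside a control value of 1618, lowest with H2 and above with the other 2. RYK read 5462, 5044 and 4423 with H2, H3 and H4 and 5152 in the control, on both sides and lowest with H4. PTK7, which acts in planar cell polarity, read 536 under H2, 683 under H3 and 854 under H4, beside a control value of 881. It was below with each hairpin, with differences of -0.72, -0.37 and -0.044, and its mean difference of -0.38 ± 0.34 was -0.21 without H2. Under quantile normalization and cyclic loess the H4 value no longer lay below. ROR2 read 209, 203 and 168 with H2, H3 and H4 and 213.5 in the control, a mean of -0.15 ± 0.17.

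ERBB2, FGFR2, FGFR3, FGFR4 and FLT4 remained. ERBB2 was below with every hairpin, at 221 under H2, 234 under H3 and 208 under H4, beside a control value of 245 (-0.15 ± 0.085). FGFR4 was above with every hairpin, by only 0.050 on average and with intensities near the threshold. FGFR2, FGFR3 and FLT4 lay on both sides, with mean differences from -0.082 for FLT4 to -0.020 for FGFR3. The last of these took the other sign when arrays were centred on their medians. In all, 11 of the 29 receptors were within 1.2-fold of the scrambled array with every hairpin. The same share over all genes kept was not counted, so this number has no background beside it.

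Growth factors that bind these receptors were read from a list of 69 ligands, of which 64 were measured and 47 lay above the threshold. With all 3 hairpins 16 of the 47 were below the scrambled array and 8 above, with a median of -0.058, where 30.6% and 16.9% of all genes were below and above. FGF2 and FGF5, both ligands of FGF receptors, stood on opposite sides. FGF2 read 432 under H2, 812 under H3 and 666 under H4, beside a control value of 1049.9, a mean difference of -0.77 ± 0.46 (SD, n = 3). FGF5 read 221, 399 and 285 with H2, H3 and H4 and 168 in the control, a mean of 0.80 ± 0.43, with H3 highest. FGF1, picked after its values were seen, read 70.5 under H2, 74.2 under H3 and 64.2 under H4, beside a control value of 142.5, which put its mean under the threshold and outside the test. BDNF, the ligand of NTRK2, read 321, 275 and 222 with H2, H3 and H4 and 167.9 in the control, above with each hairpin by 0.69 ± 0.27, while NTRK2 itself was dim on all 4 arrays.

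The 6 EGF family ligands above the threshold had a median of -0.026. EGF itself was below with every hairpin, at 168 under H2, 252 under H3 and 262 under H4, beside a control value of 303 (-0.45 ± 0.36). HBEGF, a ligand of EGFR made as a membrane-anchored precursor, read 1558, 4139.9 and 2133 with H2, H3 and H4 and 3251 in the control, on both sides, with H3 highest. VEGFA and VEGFC, which are vascular growth factors, were below with every hairpin. The other VEGF family ligands above the threshold, VEGFB and PGF, lay on both sides, with mean differences of 0.049 and 0.16. VEGFA read 1747, 2599 and 1954 with H2, H3 and H4 and 2684 in the control, and VEGFC read 841, 1283 and 1466 with H2, H3 and H4 and 1548 in the control. ANGPT1, the ligand of TEK, read 255, 303 and 402 with H2, H3 and H4 and 332 in the control, on both sides of the scrambled array. Both known ligands of the MET family, HGF and MST1, were dim. MDK, a heparin-binding growth factor, was below with every hairpin (-0.26 ± 0.13) and PSPN, a ligand of the RET system, above (0.17 ± 0.068).

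**Figure D4:**
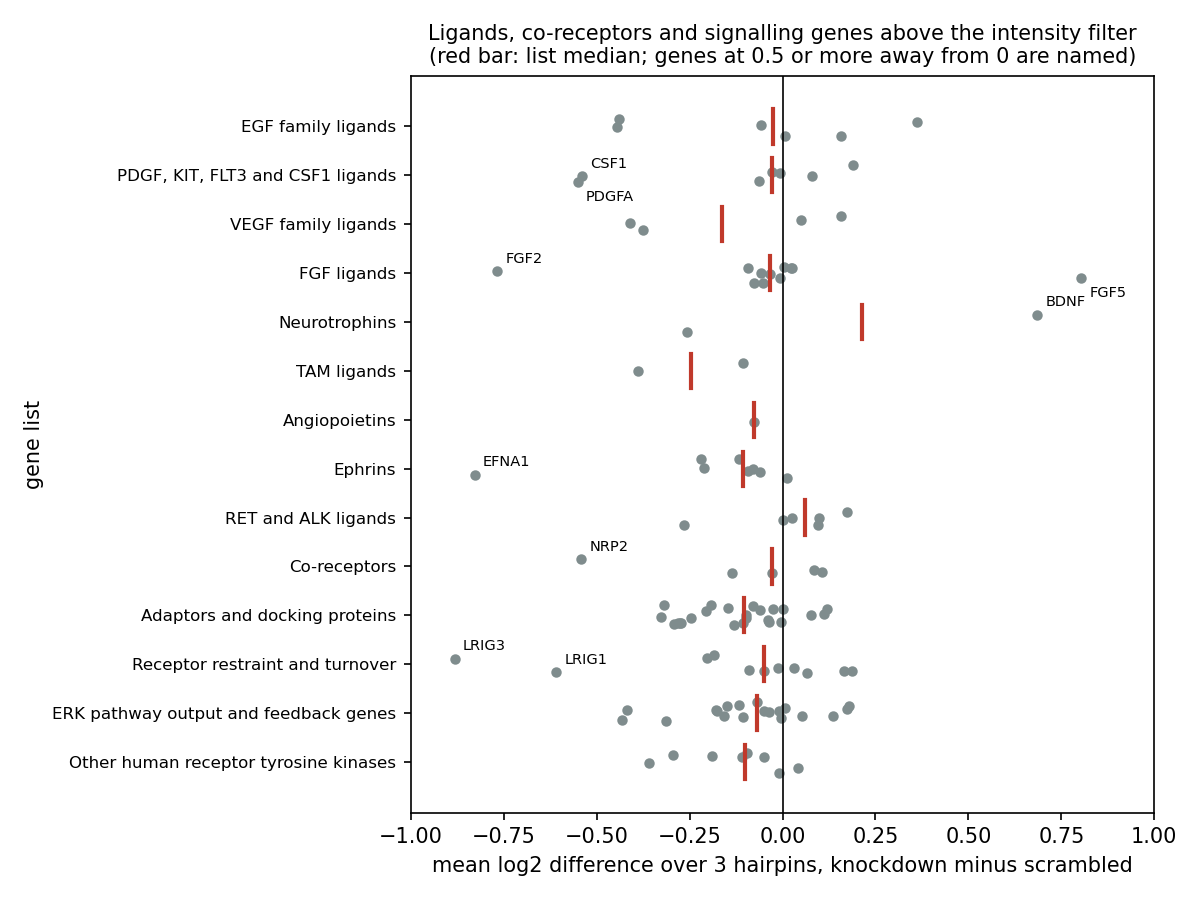
Mean log2 difference over the 3 hairpins (horizontal axis) of each ligand, co-receptor and signalling gene above the threshold, 1 point a gene, by list, with the list median as a red bar. Most points lie near 0, EFNA1, LRIG3 and FGF2 stand furthest left, and FGF5 and BDNF stand furthest right.

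Of the co-receptors, 5 of 10 measured lay above the threshold, 2 of them below with all 3 hairpins and 0 above (30.6% and 16.9% of all genes kept). NRP2, a co-receptor of VEGFC, read 1496 under H2, 2225 under H3 and 2142 under H4, beside a control value of 2803, a mean difference of -0.54 ± 0.32. Of 24 adaptors and docking proteins above the threshold, 13 were below with all 3 hairpins and 3 above, with a median of -0.10, beside 30.6% and 16.9% of all genes kept. PIK3R3, a regulatory subunit of phosphoinositide 3-kinase, had -0.32 ± 0.21, and PIK3R1, another such subunit, read 1832, 2465 and 3360.0 with H2, H3 and H4 and 3103 in the control, on both sides. No adaptor was 1.2-fold away with every hairpin on 1 side.

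Genes listed for receptor restraint and turnover were read on 11 members. With all 3 hairpins 3 were below and 1 above (30.6% and 16.9% of all genes kept). What each member does to receptors in these cells was not measured. LRIG3, a leucine-rich transmembrane protein of the LRIG family, was at least 1.5-fold below with every hairpin. Among genes above the threshold, it was the 1 member of the lists of ligands, co-receptors and signalling genes for which this held. It read 489.7 under H2, 681 under H3 and 769 under H4, beside a control value of 1171. The mean log2 difference was -0.88 ± 0.34 (SD, n = 3), with an unadjusted p of 0.022 and an adjusted p of 0.9998 in limma. LRIG1, which promotes breakdown of ERBB receptors and was picked after its values were seen, read 443, 1223 and 757 with H2, H3 and H4 and 1133 in the control, on both sides of the scrambled array.

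Transcriptional outputs of ERK, the kinase at the end of the pathway, were all 19 above the threshold. With all 3 hairpins 6 of the 19 were below, a share near the 30.6% of all genes kept, and 0 above (16.9% of genes). The list had a median of -0.069, and medians of -0.12, -0.014 and -0.098 with H2, H3 and H4. The largest mean differences were those of CCND1, cyclin D1, which read 1978 under H2, 3638 under H3 and 3985 under H4, beside a control value of 4131, and of DUSP5, a phosphatase of ERK, with 385, 522 and 534 against 635. Both were lowest with H2. No member was 1.2-fold away on 1 side with every hairpin, and 13 of the 19 lay on both sides.

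Further cell type markers were read. By its definition the threshold keeps 13813 of all 18417 genes, so lying above it does not identify the cells. Of 11 measured genes of the cerebellar granule lineage and medulloblastoma 10 lay above the threshold, including ZIC1, ZIC2, OTX2 and GLI2, and GLI1, a target of hedgehog signalling, was dim. Mesenchymal genes lay above it for 8 of 9 measured, such as VIM and FN1. Of the epithelial list 4 of 6 did, without EPCAM and CDH1, and all 4 were below the scrambled array with all 3 hairpins (median -0.19), where 30.6% of genes kept were. The largest of these differences was that of KRT8, a keratin, at 3229, 2849.8 and 2888 with H2, H3 and H4 and 4340.3 in the control (-0.54 ± 0.099, SD, n = 3). In limma its unadjusted p was 0.0070 and its adjusted p 0.9998. The neuronal list had 3 of 7 and the glial and neural stem list 4 of 9 above the threshold, with medians of 0.020 and 0.028.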

How the data were processed

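Total RNA (250 ng a sample) from 4 DAOY cultures was labelled with biotin and hybridised to 1 array each. The authors deposited 1 intensity per probe set and array, and the submitters' processing notes name RMA. The version, the settings and a genome build were not given in the sources used here. The intensities are linear, and log2 was taken. RMA brings the arrays close to a common distribution, so a shift in a cell's total RNA would not show. The deposited medians still differed slightly, at 228.1 under H2, 227.5 under H3 and 226.0 under H4, beside a control value of 232.3. Batches were not examined, for want of scan dates among the values used.

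Of 33297 probe sets, 19460 carry exactly 1 symbol in the platform annotation, 1754 carry several and 12083 are not listed with a gene. By gene number 19429 matched RefSeq. The probe set with the highest mean stood for each of 18417 genes, and genes with a mean under the 25th percentile (6.78) were left out, leaving 13813. The 3 hairpins were fitted against the scrambled array in limma 3.58.1 under R 4.3.3 (lmFit, then eBayes with a trend in intensity), Benjamini-Hochberg over all genes kept and a threshold of 0.05. The 2 residual degrees of freedom come from the hairpins, and the scrambled array is assumed to vary like them. The fit was also run on simulated data in which the scrambled array varied like the hairpins, so that assumption was not checked. Single hairpins have 1 array a side and no test. Differences are hairpin minus scrambled. SDs are over 3 hairpins, without the scrambled array's own error.

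Values on every array are given for receptors at least 1.2-fold away on 1 side with each hairpin, 1.5-fold away with at least 1, or among the 8 with the highest mean. Of each ligand, co-receptor and signalling list, up to 4 genes at least 1.2-fold away on 1 side with each hairpin are named, or else the 2 with the largest mean difference. Genes beyond this, which pair with a receptor or mark a cell type, were chosen after their values were seen. Receptors and lists were chosen with earlier results of these data known. Promoter windows are from RefSeq. The alternatives were other array scalings, filters, probe set choices, variance models and leaving out each hairpin. Python 3.11.15 with pandas 2.3.3 built the tables, and matplotlib 3.10.9 the figures.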

Additional observations from a re-analysis of the deposited data

How the results depend on the processing

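The 4 arrays and the single scrambled array limit these results, and no scan date, detection call or second control array was used. No paired analysis was possible because the 3 hairpins were set against 1 scrambled array. The count of genes past the adjusted threshold in limma was 0 with each of the 11 alternatives, with 248 to 691 genes at an unadjusted p under 0.05. With the intensity threshold raised to the 50th percentile, 17 receptors were left, of which 7 were below the scrambled array with all 3 hairpins and 1 above (31.8% and 15.7% of genes), with a median of -0.14, since fewer receptors entered. Leaving out a hairpin gave 13 to 18 receptors below and 5 above with the 2 others, where 39.4% to 40.6% of genes were below and 23.5% to 27.9% above. TIE1 alone was 1.5-fold below with both others in each case, and 0 to 1 receptors were 1.5-fold above, EPHA5 without H3. The median of the receptors ranged from -0.14 without H3 to -0.049 without H2. The mean difference of EPHB4 was -0.17 as deposited and -0.14 under each other scaling. Centring moves the mean difference of every gene by the same amount, so that shift is not particular to EPHB4. MET, for example, went from -0.087 to -0.055 and EGFR from -0.010 to 0.022. The cause of the EPHB4 shift under quantile normalization and cyclic loess was not tested. Without H2 or H4 in turn, TIE1 stayed at -0.91 and -1.29, DDR2 at -0.45 and -0.55 and AXL at -0.39 and -0.37.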

Other observations

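Further human receptor tyrosine kinases outside the list of 47 were read from a list of 11, of which 10 were measured and 8 lay above the intensity threshold. Of these, 5 were below the scrambled array with all 3 hairpins and 0 above, beside 30.6% and 16.9% of all genes kept, with a median log2 difference of -0.10. IGF1R, the receptor of insulin-like growth factors, read 2534 under H2, 2202 under H3 and 2737 under H4, beside a control value of 3041, below with each (-0.29 ± 0.16, SD, n = 3). INSR, the insulin receptor, read 225, 278 and 308 with H2, H3 and H4 and 344 in the control, lowest with H2 (-0.36 ± 0.23). None of the 8 passed the adjusted threshold in limma. EPHA8 and EPHA10, further ephrin receptors, were below with every hairpin by 0.19 and 0.051 on average, as was LMTK3, while INSRR, LMTK2 and AATK lay on both sides.

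NRG1, a ligand of ERBB3 and ERBB4 picked after its values were seen, read 1774 under H2, 1527 under H3 and 1376 under H4, beside a control value of 1207, above with each (0.36 ± 0.18, SD, n = 3), while ERBB3 and ERBB4 were dim on all 4 arrays. KITLG, the ligand of KIT, read 358 under H2, 358 under H3 and 695 under H4, beside a control value of 391.5, near it with H2 and H3 and 1.78-fold above with H4. KIT was dim on all 4 arrays, at 52.2 to 54.5.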
